A study of Mus musculus with 9 samples.

Results

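A dopamine (DA) neuron makes, packages, retrieves and clears its transmitter with a small set of proteins, and 9 genes that encode them were followed here: Th, Ddc, Gch1, Pts, Qdpr, Slc18a2, Slc6a3, Drd2 and Maoa. They were chosen by name for these roles, out of 47729 genes in the count files. All 9 passed the filter on low counts, which left 17988 genes for testing. The RNA came from mouse midbrain DA neurons at E15.75 (embryonic days), isolated by fluorescence-activated cell sorting. All groups were C57/Bl6 embryos with Pitx3-Cre/+, in which Cre is made from the locus of a transcription factor of midbrain DA neurons, and with Rosa-lox-stop-lox-Yfp, a reporter that Cre switches on. They differed in Dot1l, the gene for the histone H3 lysine 79 methyltransferase, and were Dot1l(+/+), Dot1l(fl/+) and Dot1l(fl/fl), with 0, 1 and 2 floxed alleles. Cre acts on a floxed allele only in cells that express Pitx3, so the deletion is limited to those cells and starts no earlier than Pitx3. By the study's staining, methylation of lysine 79 fell later than Cre was expected. The cells were sorted shortly after most DA neurons had lost it. Embryos were pooled for every library, and 8 of the 9 samples in the labels were used, of which 3 were Dot1l(+/+), 3 Dot1l(fl/+) and 2 labelled Dot1l(fl/fl), while the last, Dot1l(fl/fl) 3, was not analysed here. By the study's methods, embryos of the 3 genotypes were taken as matched sets from each litter before pooling, but no source used here says that pools with the same replicate number hold the same litters. The fit therefore has no term for the litter, a fit with the replicate number as a block was an alternative, and p-values measure the spread between these pools.

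Dopamine is made from tyrosine in 2 steps. Tyrosine hydroxylase, from Th, adds a hydroxyl group to give L-DOPA and sets the pace of the pathway. Aromatic L-amino acid decarboxylase, from Ddc, then removes the carboxyl group. The first step consumes the cofactor tetrahydrobiopterin (BH4), which GTP cyclohydrolase (Gch1) and 6-pyruvoyltetrahydropterin synthase (Pts) build and dihydropteridine reductase (Qdpr) recycles. The vesicular monoamine transporter VMAT2 (Slc18a2) loads dopamine into vesicles, the dopamine transporter DAT (Slc6a3) takes it back up after release, the D2 receptor (Drd2) acts on DA neurons as an autoreceptor that restrains synthesis and release, and monoamine oxidase A (Maoa) degrades what stays in the cytosol. Midbrain DA neurons switch on Th, Slc18a2 and Slc6a3 after they leave the cell cycle, under transcription factors such as Nr4a2 and Pitx3.

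Library totals ranged from 13616922 to 43674673 counts, and the 2 lowest totals were those of Dot1l(fl/fl). The limit that a count of 0 allows, 3 counts, corresponded to between 0.0694 and 0.216 CPM. Levels are given in CPM, counts brought to a common library size with the TMM factors of edgeR, and the lowest count of any of the 9 genes in any library was 315, for Pts. Dot1l as a whole gene stood at 105.2, 84.6 and 94.6 CPM in Dot1l(+/+), at 75.5, 65.6 and 76.2 in Dot1l(fl/+), and at 64.9 and 99.1 in libraries labelled Dot1l(fl/fl) 1 and 2. The second of these lay inside the Dot1l(+/+) range, although a count over the whole gene hardly checks the deletion of the floxed part alone. Between replicates of 1 genotype, chi-square over its degrees of freedom was 17.0 to 40.5, so none was taken as a repeat of another.

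The sorted cells had the transcripts of midbrain DA neurons. All 10 marker genes of this type (Nr4a2, Pitx3, Foxa1, Foxa2, En1, En2, Lmx1b, Ret, Kcnj6 and Aldh1a1) were expressed, with a summed level of 3993 to 4497 CPM in Dot1l(+/+), 3938 to 4224 in Dot1l(fl/+) and 3173 and 3711 in libraries labelled Dot1l(fl/fl). The noradrenergic markers Dbh and Phox2a had no count in any library, and Slc6a2 reached at most 0.15 CPM. The serotonergic markers Tph2, Slc6a4 and Fev summed to at most 2.70 CPM. Other makers of catecholamines or serotonin, which share Ddc, Slc18a2, Maoa and the BH4 genes with DA neurons, were thus at or near 0 in these libraries.

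In cells of the Dot1l(+/+) genotype the genes of the pathway spanned a wide range, which was compared per kb of the longest protein-coding transcript of each gene. Ddc and Th led, at 553 ± 23.7 and 508 ± 25.6 CPM per kb (SD, n = 3), and their libraries overlapped, so their order was not resolved. Slc6a3 followed at 192 ± 26.4 and Slc18a2 at 124 ± 16.7 CPM per kb. The BH4 genes, the autoreceptor and the degrading enzyme formed a lower tier: Qdpr stood at 42.3 ± 3.34, Gch1 at 29.0 ± 2.00, Drd2 at 21.3 ± 1.51, Pts at 19.1 ± 0.426 and Maoa at 9.63 ± 0.936 CPM per kb. Apart from Ddc and Th, no neighbours in this order had overlapping libraries. When the length of all annotated exons together was used in place of a transcript, Th stood above Ddc, Drd2 above Gch1 and Maoa above Pts, so that these neighbours have no settled order. By CPM without regard to length, Ddc ranked 61, Th 84, Slc6a3 131 and Slc18a2 299 among the genes tested, while Gch1 ranked 3125 and Pts 7942.

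**Figure D1:**
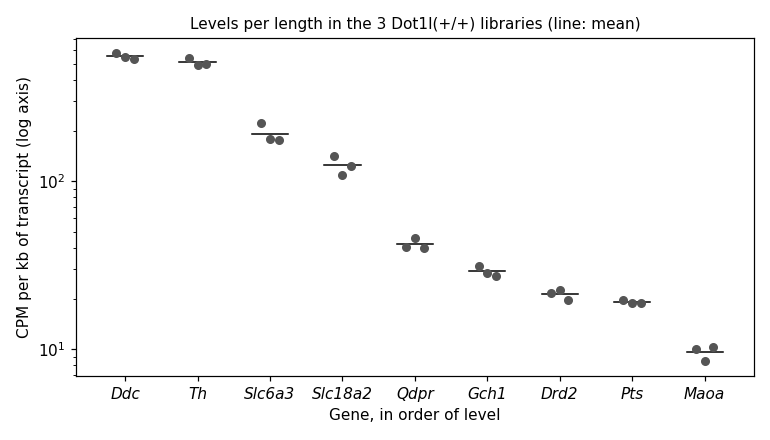
CPM per kb of the longest protein-coding transcript, on a log axis, of the 9 genes in the 3 Dot1l(+/+) libraries (points), with the mean as a line. Ddc at 553 and Th at 508 stand at the top and Maoa at 9.63 at the bottom.

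The sequence before the transcription start is shown for the 2 enzymes of synthesis, both transporters and the autoreceptor. This choice was made with their levels known. Th, Ddc, Slc18a2 and Drd2 lay lower in both libraries labelled Dot1l(fl/fl) than in any Dot1l(+/+) library, as did 11.6% of all genes tested. Slc6a3 overlapped. Among the genes not shown, Pts lay higher without overlap, as did 12.1% of all genes. Each run holds the 250 bases before the start given by RefSeq on GRCm38.p6, read 5′ to 3′ on the strand of the gene. Capitals mark a match, on either strand, to the CRE bound by CREB-family factors (TGACGTCA), the NBRE bound by NR4A receptors such as Nr4a2 (AAAGGTCA), the TATA box (TATAAA) or the GC box bound by Sp factors (GGGCGG).
Th, chr7:142899996-142900245, minus strand: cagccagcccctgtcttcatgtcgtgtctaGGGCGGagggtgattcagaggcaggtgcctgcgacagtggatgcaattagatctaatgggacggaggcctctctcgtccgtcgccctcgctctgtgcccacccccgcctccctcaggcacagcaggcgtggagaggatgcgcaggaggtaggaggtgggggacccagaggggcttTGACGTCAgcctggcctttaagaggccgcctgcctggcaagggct
Ddc, chr11:11898145-11898394, minus strand: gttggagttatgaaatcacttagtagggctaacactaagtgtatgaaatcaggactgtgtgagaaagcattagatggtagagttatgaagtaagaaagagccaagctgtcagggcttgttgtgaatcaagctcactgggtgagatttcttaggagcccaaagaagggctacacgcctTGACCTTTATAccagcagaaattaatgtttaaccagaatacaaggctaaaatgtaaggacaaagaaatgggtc
Slc18a2, chr19:59260628-59260877, plus strand: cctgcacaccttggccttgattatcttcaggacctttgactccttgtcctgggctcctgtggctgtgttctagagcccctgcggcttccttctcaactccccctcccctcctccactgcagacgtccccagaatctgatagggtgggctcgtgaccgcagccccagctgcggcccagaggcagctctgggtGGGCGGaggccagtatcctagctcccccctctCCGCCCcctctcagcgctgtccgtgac
Slc6a3, chr13:73536497-73536746, plus strand: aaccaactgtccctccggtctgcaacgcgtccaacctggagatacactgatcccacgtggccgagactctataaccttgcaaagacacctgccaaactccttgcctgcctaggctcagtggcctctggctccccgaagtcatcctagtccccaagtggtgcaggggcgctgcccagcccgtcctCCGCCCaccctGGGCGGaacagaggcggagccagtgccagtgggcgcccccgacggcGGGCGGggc
Drd2, chr9:49340153-49340402, plus strand: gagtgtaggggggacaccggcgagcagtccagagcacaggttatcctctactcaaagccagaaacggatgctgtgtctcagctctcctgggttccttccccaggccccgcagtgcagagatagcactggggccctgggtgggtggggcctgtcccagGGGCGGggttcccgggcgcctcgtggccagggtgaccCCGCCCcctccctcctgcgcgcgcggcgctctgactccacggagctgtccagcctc

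Th held the CRE from 45 to 38 bases before its start and a GC box further up. It was the sole gene of the 9 with a CRE in this window, and 1.55% of 32817 mouse promoters of the same length held it. Ddc, whose upstream start is shown, held an NBRE from 73 to 66 bases before the start that overlaps a TATA box, and no GC box. Its second RefSeq start had none of the 4 motifs. An NBRE was found in 1.34% of promoters and a TATA box in 12.4%. Slc6a3 held 3 GC boxes, and Slc18a2 and Drd2 2 each, where 32.7% of promoters held at least 1. Of the genes not shown, Gch1 held a TATA box and 2 GC boxes and Qdpr, Pts and Maoa 1 GC box each. These matches describe the letters alone.

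Setting Dot1l(fl/fl) beside Dot1l(+/+) asks how DA neurons with both Dot1l alleles floxed express the transmitter pathway. No gene of the 9 had an adjusted p under 0.05 in edgeR, and neither did any of the genes tested (0.0%). At an unadjusted p under 0.05, Th, Ddc, Slc18a2 and Drd2 were lower, 4 of 9 genes where 5.03% of all genes tested were lower at that p, and none was higher, where 4.24% of all genes were. These counts moved with single libraries. Without Dot1l(fl/fl) 1, Th, Ddc and Drd2 were lower at that p (4.17% of all genes lower, 2.71% higher), and Slc18a2 was not among them. Without Dot1l(fl/fl) 2, Th, Slc18a2 and Drd2 were lower (6.61%) and Slc6a3 was higher, by 0.32 (4.48%), while Ddc had an unadjusted p of 0.113. Without Dot1l(+/+) 1, Th, Ddc and Drd2 were lower (3.67%) and Slc6a3 higher, by 0.24 (3.04%). DESeq2 called 1 of the 9, Th, and 1.26% of all genes. It gave no adjusted p to Drd2, Pts and Maoa, which therefore could not be called. In Th, Ddc, Slc18a2 and Drd2 both libraries labelled Dot1l(fl/fl) lay below all 3 Dot1l(+/+) libraries, as did 11.6% of all genes. Pts alone lay above, as did 12.1%. The median log2 fold change of the 9 genes was 0.03, beside -0.0031 over all genes tested.

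**Figure D2:**
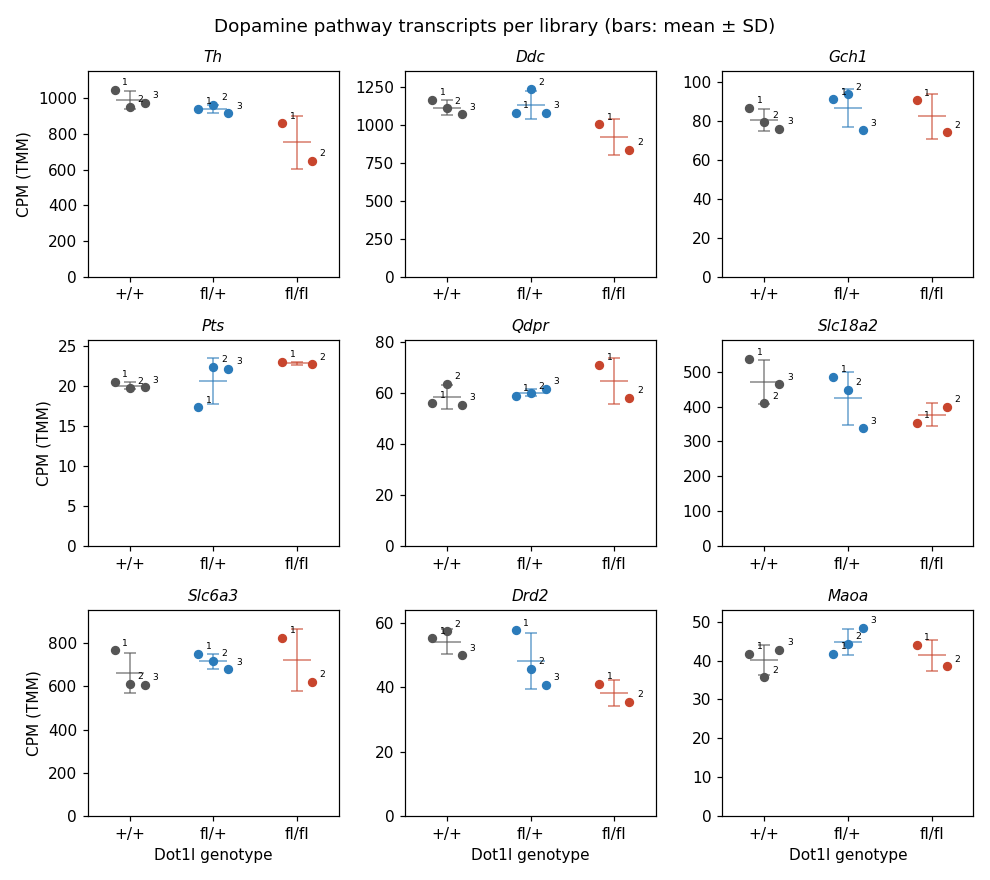
CPM of each of the 9 genes in every library, by Dot1l genotype, with the replicate number beside each point and the mean ± SD as a bar. Th, Ddc, Slc18a2 and Drd2 lie below the Dot1l(+/+) points in both libraries labelled Dot1l(fl/fl), and Slc6a3, Gch1, Qdpr and Maoa overlap them.

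Th (ENSMUSG00000000214, chromosome 7 from 142892752 to 142931128, minus strand, GRCm38) stood at 1047, 952 and 975 CPM in the Dot1l(+/+) libraries, at 941, 965 and 915 in Dot1l(fl/+), and at 860 and 649 in libraries labelled Dot1l(fl/fl). The 2 last lay below all the others, with a wider gap between them than within the other genotypes. The means were 991 ± 49.97 (SD, n = 3), 940 ± 25.02 (n = 3) and 755 ± 149 (n = 2). The log2 fold change of Dot1l(fl/fl) against Dot1l(+/+) was -0.39 ± 0.10 (SE), a difference of -23.8%, with an unadjusted p of 0.000447 and an adjusted p of 0.206 in edgeR. Without the library labelled Dot1l(fl/fl) 1 it was -0.61, and without Dot1l(fl/fl) 2 it was -0.21. Each of these fits keeps 1 Dot1l(fl/fl) pool, so effect sizes alone are given. The adjusted p was 0.0106 in DESeq2, 0.0269 in edgeR without the filter, where 0.447% of 23694 genes were called, and 0.00138 with the replicate number as a block and an offset for length and GC content, where 0.111% were. Without Dot1l(fl/fl) 1, 0.0206% of 19384 genes were called. Over all 17 alternatives the adjusted p of Th ranged from 0.00138 to 0.674, and the sign was the same in each.

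Ddc (ENSMUSG00000020182, chromosome 11 from 11814101 to 11898144, minus strand) ran close to Th. Its level was 1165, 1110 and 1070 CPM in Dot1l(+/+), 1080, 1236 and 1081 in Dot1l(fl/+), and 1004 and 838 in libraries labelled Dot1l(fl/fl). Again the 2 last were the lowest of the 8. The log2 fold change against Dot1l(+/+) was -0.28 ± 0.09 (SE), or -17.4%, with an adjusted p of 0.289 in edgeR, and it ranged from -0.41 to -0.15 as single libraries were left out. Across the 8 libraries Th and Ddc were the pair of the 9 genes whose log2 CPM, each centred on its own mean, differed least, with a root mean square difference of 0.0795, and Pts and Drd2 the pair that differed most, at 0.360.

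The 3 BH4 genes had log2 fold changes above 0, none with an unadjusted p under 0.05 in edgeR. Gch1, whose enzyme opens BH4 synthesis (ENSMUSG00000037580, chromosome 14 from 47153895 to 47189413, minus strand), stood at 86.7, 79.2 and 75.9 CPM in Dot1l(+/+), at 91.2, 93.6 and 75.2 in Dot1l(fl/+), and at 90.6 and 74.2 in libraries labelled Dot1l(fl/fl). The last 2 spanned the whole Dot1l(+/+) range, and the log2 fold change was 0.03 ± 0.13 (SE, edgeR adjusted p 0.984).

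Pts, the second enzyme of BH4 synthesis (ENSMUSG00000032067, chromosome 9 from 50521617 to 50528724, minus strand), stood at 20.5, 19.7 and 19.8 CPM in Dot1l(+/+), at 17.3, 22.4 and 22.1 in Dot1l(fl/+), and at 23.0 and 22.7 in libraries labelled Dot1l(fl/fl). The 2 last were the highest of the 8. Its log2 fold change was 0.19 ± 0.19 (SE, edgeR adjusted p 0.849), a difference as large as its own standard error, and counting alone gives a coefficient of variation of 5.63% at the lowest Pts count.

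Qdpr, which recycles BH4 (ENSMUSG00000015806, chromosome 5 from 45434021 to 45450236, minus strand), stood at 56.2, 63.7 and 55.3 CPM in Dot1l(+/+), at 58.8, 59.9 and 61.6 in Dot1l(fl/+), and at 71.0 and 58.2 in libraries labelled Dot1l(fl/fl). The groups overlapped, with the highest value in Dot1l(fl/fl) 1, and the log2 fold change was 0.15 ± 0.14 (SE, edgeR adjusted p 0.824). Qdpr shares 332 exon bases with an antisense gene, Gm42413, and Slc18a2 shares 111 with another, Gm29261, so counts of both are uncertain by what strand-blind counting would add.

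The 2 transporters had log2 fold changes of opposite sign, a difference between genes that was not tested. Slc18a2, the vesicle loader (ENSMUSG00000025094, chromosome 19 from 59260896 to 59296012, plus strand), stood at 536, 410 and 464 CPM in Dot1l(+/+), at 485, 448 and 338 in Dot1l(fl/+), and at 353 and 400.2 in libraries labelled Dot1l(fl/fl). Both of the last lay below the lowest Dot1l(+/+) library, by little for the second, while the lowest value of all was in Dot1l(fl/+) 3. The log2 fold change was -0.32 ± 0.13 (SE), or -19.9%, with an adjusted p of 0.415 in edgeR, and it ran from -0.41 to -0.22 as single libraries were left out.

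Slc6a3, which takes dopamine back up (ENSMUSG00000021609, chromosome 13 from 73536747 to 73578672, plus strand), stood at 768, 613 and 607 CPM in Dot1l(+/+), at 751, 719 and 680 in Dot1l(fl/+), and at 826 and 621 in libraries labelled Dot1l(fl/fl). The groups overlapped, and the highest library of the 8 was Dot1l(fl/fl) 1. Its log2 fold change was 0.13 ± 0.11 (SE, edgeR adjusted p 0.809), from -0.09 without Dot1l(fl/fl) 1 to 0.32 without Dot1l(fl/fl) 2, so its direction rested on 1 library.

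Drd2, the autoreceptor (ENSMUSG00000032259, chromosome 9 from 49340627 to 49408177, plus strand), stood at 55.3, 57.5 and 50.02 CPM in Dot1l(+/+), at 57.8, 45.8 and 40.9 in Dot1l(fl/+), and at 41.1 and 35.5 in libraries labelled Dot1l(fl/fl). Both Dot1l(fl/fl) values lay below every Dot1l(+/+) value, and Dot1l(fl/+) spanned the gap between them. It had the largest log2 fold change of the 9 genes, -0.50 ± 0.16 (SE), or -29.4%, with an unadjusted p of 0.00504 and an adjusted p of 0.289 in edgeR. Leaving out single libraries gave -0.61 to -0.40.

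Maoa, which degrades cytosolic dopamine (ENSMUSG00000025037, chromosome X from 16619698 to 16687818, plus strand), stood at 41.8, 35.7 and 42.9 CPM in Dot1l(+/+), at 41.8, 44.4 and 48.5 in Dot1l(fl/+), and at 44.2 and 38.6 in libraries labelled Dot1l(fl/fl). All 3 groups overlapped, and the log2 fold change was 0.05 ± 0.16 (SE, edgeR adjusted p 0.983).

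In Dot1l(fl/+) against Dot1l(+/+), with 1 floxed allele, no gene of the 9 had an adjusted p under 0.05 in edgeR or DESeq2, and none an unadjusted p under 0.05 in edgeR. Over all genes tested the edgeR shares were 0.0% at the adjusted p, and 2.86% lower and 2.16% higher at the unadjusted p. The libraries of the 2 genotypes overlapped for all 9 genes, where 5.97% of all genes lay lower and 5.56% higher without overlap. The log2 fold changes ran from -0.17 ± 0.14 (SE) for Drd2 and -0.15 ± 0.11 for Slc18a2 to 0.16 ± 0.14 for Maoa, and those of Th and Ddc were -0.08 ± 0.09 and 0.02 ± 0.08. The median of the 9 was 0.04, beside -0.0071 over all genes. This comparison and the one before it share the Dot1l(+/+) libraries.

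In Dot1l(fl/fl) against Dot1l(fl/+), the 2 enzymes of synthesis had the lowest unadjusted p of the 9 genes. No gene of the 9 had an adjusted p under 0.05 in edgeR (0.0% of all genes) or DESeq2, and Th and Ddc were the 2 with an unadjusted p under 0.05 in edgeR, both lower, as were 2.16% of all genes, with none higher (1.86% of all genes). They were also the 2 whose libraries lay lower without overlap (9.57% of all genes), and Pts lay higher (10.2%). The log2 fold change was -0.32 ± 0.10 (SE) for Th and -0.30 ± 0.09 for Ddc, with an edgeR adjusted p of 0.998 for both. Both differences rested largely on Dot1l(fl/fl) 2. Without that library Th stood at -0.13, with an unadjusted p of 0.167 and an adjusted p of 0.940 in edgeR, and Ddc at -0.17 with an unadjusted p of 0.0732, so that none of the 9 genes was under 0.05 (3.38% of all genes lower, 2.33% higher). Without Dot1l(fl/fl) 1 Th stood at -0.54, with an edgeR adjusted p of 0.0160 where 0.0361% of 19384 genes were called, and Ddc at -0.44. With the replicate block and the offset together the edgeR adjusted p of Th was 0.0380, where 0.0556% of all genes were called. Without Dot1l(fl/+) 3, Slc18a2 and Drd2 joined Th and Ddc at an unadjusted p under 0.05, all 4 lower (2.28% of all genes) with none higher (2.46%), and without Dot1l(fl/fl) 1 Drd2 joined them (3.28% lower, 2.15% higher). Drd2 had -0.33 ± 0.16, with an unadjusted p of 0.0534 in edgeR, Slc18a2 -0.17 ± 0.13 and Slc6a3 0.02 ± 0.11. The median of the 9 was -0.12, beside 0.0014 over all genes.

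**Figure D3:**
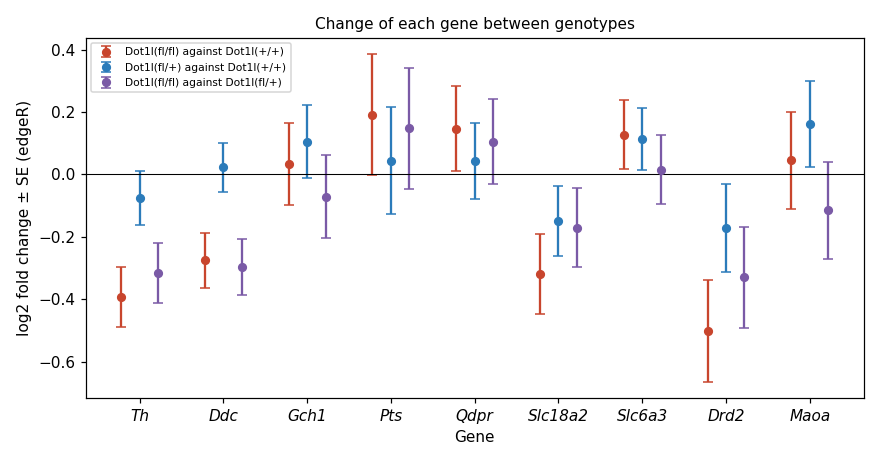
Log2 fold change ± SE from edgeR for each of the 9 genes in 3 comparisons of genotypes, which share libraries. Th and Ddc lie near 0 in Dot1l(fl/+) against Dot1l(+/+), at -0.08 and 0.02, and at -0.39 and -0.28 in Dot1l(fl/fl) against Dot1l(+/+).

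A slope over 0, 1 and 2 floxed alleles used all 8 libraries at once. No gene of the 9, nor any gene tested (0.0%), had an adjusted p under 0.05 in edgeR, and DESeq2 called Th and 1.73% of all genes. DESeq2 gave Pts no adjusted p. Th, Drd2, Slc18a2 and Ddc had an unadjusted p under 0.05 in edgeR with a lower level per allele, as did 5.61% of all genes, and none of the 9 had it with a higher level, as did 4.48%. The slope per allele on the log2 scale was -0.19 ± 0.05 (SE) for Th, with an edgeR adjusted p of 0.169, -0.24 ± 0.08 for Drd2, -0.16 ± 0.06 for Slc18a2 and -0.12 ± 0.05 for Ddc. The slope of Th ran from -0.24 without Dot1l(fl/fl) 1 to -0.10 without Dot1l(fl/fl) 2, each with 1 Dot1l(fl/fl) pool left. Its adjusted p in edgeR was 0.0406 without Dot1l(+/+) 2, where 1.51% of 17721 genes were called, and 0.0230 without the filter, where 0.726% of 23694 were. Without Dot1l(fl/fl) 2 the slope of Ddc was -0.05 with an unadjusted p of 0.264, and Slc6a3 was higher, by 0.15 per allele, with an unadjusted p of 0.00632 (4.92% of all genes higher), which left Th, Slc18a2 and Drd2 lower at an unadjusted p under 0.05 (7.23%). Without Dot1l(+/+) 1 the lower genes were Th, Ddc and Drd2 (4.16%), with Slc6a3 higher (3.15%), and without Dot1l(fl/fl) 1 they were the same 3 (4.29%), with none higher (2.78%). The slopes of the other 5 genes lay between 0.02 and 0.09.

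The balance within a library can be read without any scaling between libraries, as the count of each gene over that of Th. For Slc6a3 the log2 of this ratio was -0.45, -0.63 and -0.68 in Dot1l(+/+), -0.33, -0.43 and -0.43 in Dot1l(fl/+), and -0.06 and -0.06 in libraries labelled Dot1l(fl/fl). No pair of genotypes overlapped, with means of -0.59, -0.39 and -0.06, in a comparison added after the values were seen. The libraries labelled Dot1l(fl/fl) had nearly as many Slc6a3 as Th counts, without regard to length. Per kb of transcript, Slc6a3 stood at 209 and Th at 387 CPM in Dot1l(fl/fl). The CPM of Slc6a3 itself overlapped between the genotypes, while that of Th, which enters the ratio, was lower in both libraries labelled Dot1l(fl/fl). Relative to Th, 40.4% of all genes lay higher without overlap in Dot1l(fl/fl) than in Dot1l(+/+), and 35.7% than in Dot1l(fl/+). For Dot1l(fl/+) against Dot1l(+/+) it was 8.78%, and the share with all 3 genotypes apart was not counted. The difference in the log2 ratio of Slc6a3 between Dot1l(fl/fl) and Dot1l(+/+) was 0.53, with an exact two-sided permutation p of 0.2, the smallest these library numbers allow. For Dot1l(fl/+) against Dot1l(+/+) that difference was 0.19, with an exact permutation p of 0.1, again the smallest possible. No exact permutation p could fall under 0.05 at these library numbers, so this test cannot decide whether a ratio differs. After adjustment over the 24 ratio comparisons the lowest exact permutation p was 0.369.

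**Figure D4:**
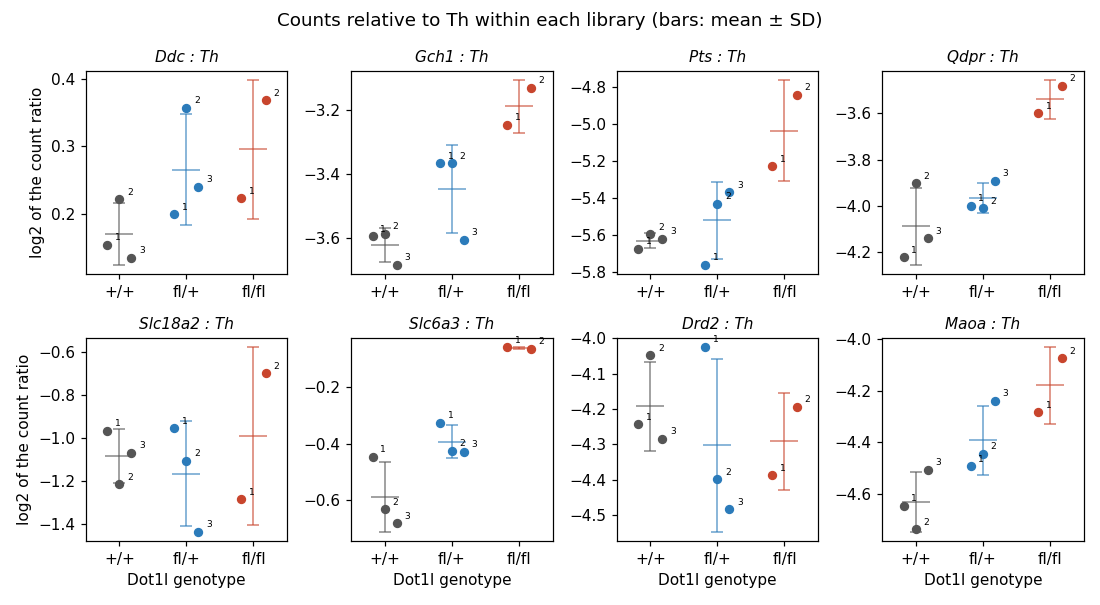
Log2 of the count of each of 8 genes over the count of Th in the same library, by Dot1l genotype, with replicate numbers and the mean ± SD as a bar, each panel on its own axis. The Slc6a3 means are -0.59, -0.39 and -0.06 with no overlap between pairs of genotypes, while the values of Slc18a2 and Drd2 overlap throughout. Relative to Th, 40.4% of all genes lay higher without overlap in Dot1l(fl/fl) than in Dot1l(+/+). The level of Th enters every ratio.

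Relative to Th, 6 of the 8 other genes lay higher in Dot1l(fl/fl) than in Dot1l(+/+) without overlap, by 0.60 on the log2 scale for Pts, 0.55 for Qdpr, 0.53 for Slc6a3, 0.45 for Maoa, 0.43 for Gch1 and 0.13 for Ddc. The level of Th enters every one of these ratios, and 40.4% of all genes tested lay higher relative to Th in the same way, with 1.69% lower. Slc18a2 and Drd2 overlapped, at differences of 0.09 and -0.10. In Dot1l(fl/+) against Dot1l(+/+) it was Slc6a3 and Maoa that lay higher (8.78% of all genes) and none lower (3.2%). In Dot1l(fl/fl) against Dot1l(fl/+) it was Gch1, Pts, Qdpr and Slc6a3 (35.7%), with none lower (1.83%).

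Together the 9 genes took 0.333% to 0.372% of the counts in Dot1l(+/+), 0.329% to 0.363% in Dot1l(fl/+), and 0.331% and 0.279% in libraries labelled Dot1l(fl/fl) 1 and 2. The summed level followed mainly from Ddc, Th, Slc6a3 and Slc18a2, which hold most of it. Dot1l(fl/fl) 2 was lowest of the 8 for Th, Ddc, Gch1 and Drd2, and Dot1l(fl/fl) 1 highest for Slc6a3, Qdpr and Pts. The spread between libraries of a genotype differed among the genes: in Dot1l(+/+) the coefficient of variation was 2.23% for Pts, 4.28% for Ddc and 5.04% for Th, but 13.5% for Slc18a2 and 13.8% for Slc6a3, in both of which Dot1l(+/+) 1 was the highest of the 3.

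**Figure D5:**
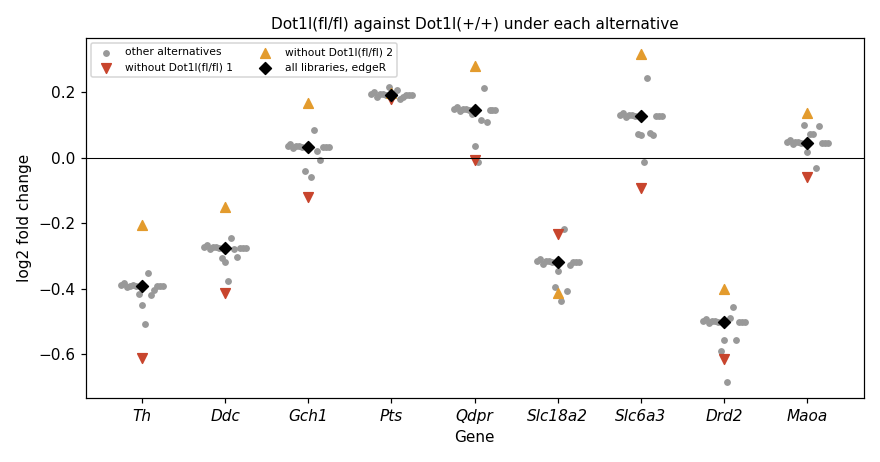
Log2 fold change of Dot1l(fl/fl) against Dot1l(+/+) for each of the 9 genes with all libraries (diamonds), without Dot1l(fl/fl) 1 or 2 (triangles) and under the other alternatives (grey points). Th, Ddc, Slc18a2 and Drd2 stay below 0 throughout, and for Slc6a3 the 2 triangles lie on either side of 0, at -0.09 and 0.32.

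Other genes of the pathway were taken from lists of 35 genes chosen by role, of which 34 matched a gene in the files and 27 were tested. None had an adjusted p under 0.05 in edgeR or in DESeq2 in any of the 3 comparisons. Between Dot1l(fl/fl) and Dot1l(+/+), edgeR gave an unadjusted p under 0.05 to 5 of them, 3 lower (5.03% of all genes) and 2 higher (4.24%) in Dot1l(fl/fl). The median log2 fold change of the 27 was 0.086, beside -0.0031 over all genes. In Dot1l(fl/fl) against Dot1l(fl/+), 4 had an unadjusted p under 0.05 in edgeR and were lower (2.16% of all genes), namely Aldh1a1, Pcbd2, Sv2c and Slc10a4. Sncg alone was higher at that p (1.86%).

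Among the genes of breakdown, Aldh1a1, the aldehyde dehydrogenase of a ventral group of DA neurons, had a log2 fold change of -0.38 ± 0.13 (SE, edgeR adjusted p 0.299) in Dot1l(fl/fl) against Dot1l(+/+) and overlapping libraries. Against Dot1l(fl/+) it was -0.47 ± 0.13 (edgeR adjusted p 0.925), with libraries lower without overlap, as were 9.57% of all genes. Maob, Aldh2, Aldh7a1 and Akr1b3 had an unadjusted p above 0.05.

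Among partners of the vesicle and the transporters, 2 of 6 were lower (5.03% of all genes) and 1 higher (4.24%) at an unadjusted p under 0.05 in edgeR. The log2 fold change was -0.57 ± 0.19 (SE) for Sv2c, a synaptic vesicle protein, and for Slc10a4, a vesicle transporter of monoaminergic neurons, it was -0.43 ± 0.16. Sncg (gamma-synuclein) stood at 2.2, 4.3 and 1.6 CPM in Dot1l(+/+), at 2.3, 1.9 and 2.8 in Dot1l(fl/+), and at 5.7 and 6.6 in libraries labelled Dot1l(fl/fl), a log2 fold change of 1.18 ± 0.46 against Dot1l(+/+). Syngr3, Pick1 and Stx1a had an unadjusted p above 0.05.

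Of the 5 regulators of tyrosine hydroxylase, Ppp2ca, the catalytic subunit of the phosphatase that acts on it, had 0.20 ± 0.09 with an unadjusted p of 0.0343 in edgeR, and Ywhaz, Ywhae, Prkaca and Camk2a were above 0.05. None of the other BH4 genes tested (Spr, Pcbd1 and Pcbd2) was under 0.05 in Dot1l(fl/fl) against Dot1l(+/+). Pcbd2, a partner of BH4 recycling, was the single gene of the pathway lists under 0.05 in Dot1l(fl/+) against Dot1l(+/+), where 2.16% of all genes were higher. It stood at 1.4, 2.4 and 1.8 CPM in Dot1l(+/+) and at 5.9, 3.2 and 5.7 in Dot1l(fl/+), a log2 fold change of 1.40 ± 0.43 (SE, edgeR adjusted p 0.940). In libraries labelled Dot1l(fl/fl) it stood at 2.0 and 2.5 CPM, -1.11 ± 0.50 against Dot1l(fl/+), so its level did not follow the number of floxed alleles. The remaining dopamine receptors summed to at most 4.18 CPM in any library, against 35.5 CPM for Drd2 at its lowest.

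Markers of the DA neurons themselves lay lower in Dot1l(fl/fl) beside Th, Ddc, Slc18a2 and Drd2. Of the 10, all had a log2 fold change below 0 against Dot1l(+/+), with a median of -0.25, and Nr4a2, Foxa1, En1, En2, Ret and Aldh1a1 were below 0.05 at the unadjusted p in edgeR, 6 of 10 where 5.03% of all genes were lower at that p. None had an adjusted p under 0.05 in edgeR, and DESeq2 called En1, En2 and Nr4a2, and 1.26% of all genes. Nr4a2, a transcription factor that activates Th, Slc18a2 and Slc6a3, had -0.40 ± 0.09 (SE), and Pitx3, from whose locus Cre is made, -0.01 ± 0.12. In RNA from pooled sorted cells, fewer DA neurons of a kind and less RNA in each cannot be told apart.

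Levels of immediate early genes, which respond to the dissociation of tissue, are given beside these values. Their 6 genes summed to 836 to 956 CPM in Dot1l(+/+), 783 to 1001 in Dot1l(fl/+) and 1060 and 1087 in libraries labelled Dot1l(fl/fl), and Fos, Jun, Junb and Ier2 had an unadjusted p under 0.05 in edgeR with a higher level in Dot1l(fl/fl) than in Dot1l(+/+), 4 of 6 where 4.24% of all genes did. None of the 6 had an adjusted p under 0.05 in edgeR or DESeq2, and the log2 fold changes of Fosb and Egr1 were -0.03 ± 0.14 and -0.06 ± 0.18 (SE). The 5 GABAergic markers summed to 202 to 220, 193 to 226 and 234 to 261 CPM in the same order, and the list had a median log2 fold change of -0.14. Of the 5, Slc32a1 alone had an unadjusted p under 0.05 in edgeR, at 0.37 ± 0.11 (SE, edgeR adjusted p 0.269), and DESeq2 called it. Gad2 stood at 0.10 ± 0.13, Gad1 at -0.36 ± 0.41, and Gata3 and Gata2, both near 0 CPM, at -0.14 ± 0.99 and -0.85 ± 2.59. The 5 blood markers summed to 13.7 to 18.1, 11.95 to 18.7 and 16.7 to 33.4 CPM, and the 4 endothelial markers to 4.48 to 8.09, 3.76 to 12.7 and 9.14 to 10.2. The summed ranges of microglial (88.6 to 108, then 79.9 to 111, then 96.3 to 115) and glutamatergic markers (169 to 207, 185 to 216 and 190 to 198) overlapped between Dot1l(fl/fl) and Dot1l(+/+), as did those of radial glia (216 to 256, 223 to 240 and 224 to 235). Oligodendrocyte precursor markers summed to 7.37 to 12.8, 4.78 to 12.1 and 5.74 to 7.20 CPM. The part of these shifts, of depth and of single libraries in the lower levels of Th, Ddc, Slc18a2 and Drd2 was not tested.

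Genes that tracked each of the 9 most closely were sought among 9953 genes with a mean of at least 10 CPM, by the root mean square difference of log2 CPM after centring each gene on its mean of the 8 libraries. Cdc42ep3 was nearest to Th, at 0.0404, followed by Rcan3 and Gas7, where Th itself deviated from its mean by 0.196. Abcf1 was nearest to Ddc (0.0560), Sos1 to Slc18a2 (0.0703), Sh3kbp1 to Slc6a3 (0.0585), Nxpe3 to Drd2 (0.0947), Ap3m2 to Gch1 (0.0399), Traf4 to Pts (0.0488), Tubb5 to Qdpr (0.0263) and Tab1 to Maoa (0.0513). With 8 libraries and many genes, close matches of this kind are found for each of the 9, and they are given as a description.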

How the data were processed

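RNA-seq libraries were made by the authors with a strand-preserving kit (NEBNext Ultra Directional), from RNA pools that passed a quality score. Per the labels, bcl2fastq 2.17, Trimmomatic 0.30 and DESeq2 1.10.1 were used with the build GRCm38.p4; the aligner, the counting program and its strand setting are not given in the sources used here. Files deposited by the authors hold raw, whole-number counts of reads for each Ensembl gene, and further tables hold their DESeq2 results (means, fold changes, p-values), of which only the gene symbols were used. Of the identifiers, 47310 (99.1%) were found in GENCODE for GRCm38.

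Counts were tested here with the quasi-likelihood test of edgeR 4.0.16 (R 4.3.3), with TMM, filterByExpr and all 3 genotypes in 1 fit without covariates; the Benjamini-Hochberg adjustment ran over the 17988 genes tested and the threshold was 0.05. The steps were checked on simulated counts. Exact permutation tests used scipy 1.17.1. Alternatives were DESeq2 1.42.0, RLE and upper-quartile factors, a filter at a mean count of 50 or none, 2 genotypes alone, a block for the replicate number, a length and GC offset (splines with 4 degrees of freedom), that offset with the block, and each library left out. The limit of 3 counts and the coefficient of variation from counting cover counting error alone, while each SE and SD includes the spread between pools.

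The 9 genes and the lists were chosen with earlier results of these data known; the comparison of ratios to Th was added after the values were seen. Named were the 9 genes, Dot1l, listed genes with an unadjusted p under 0.05, defining markers and the nearest genes by pattern. Of the genes in the lists, 4 are not reported here and are left out of the counts.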

Additional observations from a re-analysis of the deposited data

How the results depend on the processing

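The 9 genes gave 603 values over 4 comparisons and the alternatives. In 563 the direction and the side of the threshold were those reported, in 9, all of Th, the adjusted p fell under the threshold, in none was a call lost, and in 31 the sign turned, none of these in Th, Slc18a2 or Drd2. No gene other than Th was called under any alternative. The values of Th under the threshold include fits without Dot1l(fl/fl) 1, which keep 1 pool of that genotype. DESeq2 gave no adjusted p to Drd2, Pts and Maoa in Dot1l(fl/fl) against Dot1l(+/+), nor to Pts per allele. These stand among the 603 values as not called. The count of genes called in Dot1l(fl/fl) against Dot1l(+/+) was 1 in place of 0 without the filter, in DESeq2 and with the replicate block and the offset together. It stayed at 0 as single Dot1l(+/+) or Dot1l(fl/+) libraries were left out. Against Dot1l(fl/+) it was 1 with the block and the offset together, and again 0 as those libraries were left out. For the number of alleles it was 1 without the filter and in DESeq2, and 0 to 1 over the libraries left out. Between Dot1l(fl/fl) and Dot1l(fl/+), 4 genes in place of 2 had an unadjusted p under 0.05 in edgeR with block and offset together. All were lower, as were 600 of 17988 genes. With Drd2 beside Th and Ddc they were 3 without the filter (464 of 23694 genes lower) and at a mean count of 50 (375 of 13219). They were the same 3 with the block (324 of 17988) and with the offset (454 of 17988). As single Dot1l(+/+) or Dot1l(fl/+) libraries were left out they were 2 to 4. Without Dot1l(fl/fl) 2, Th stood at -0.13 and Ddc at -0.17. In Dot1l(fl/+) against Dot1l(+/+) the genes at that p were 0 to 1 as single libraries were left out. It was 1 higher without Dot1l(+/+) 1 (374 of 17829 genes higher) and 1 lower without Dot1l(fl/+) 1 (501 of 17733 lower).

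Signs turned for genes near 0. With the replicate block alone, Gch1 was -0.042 in Dot1l(fl/fl) against Dot1l(+/+) and -0.0062 per allele, and Slc6a3 -0.048 against Dot1l(fl/+). With the offset alone, Qdpr was -0.0059 in Dot1l(fl/+) against Dot1l(+/+) and Slc6a3 -0.026 in Dot1l(fl/fl) against Dot1l(fl/+). With both, Gch1 was -0.058, Qdpr -0.014 and Slc6a3 -0.013 in Dot1l(fl/fl) against Dot1l(+/+), Qdpr -0.0061 in Dot1l(fl/+) against Dot1l(+/+), Qdpr -0.0075 and Slc6a3 -0.114 between Dot1l(fl/fl) and Dot1l(fl/+), and Gch1 -0.011 and Qdpr -0.0067 per allele. As single libraries were left out, the range in Dot1l(fl/fl) against Dot1l(+/+) was -0.121 to 0.169 for Gch1, -0.0068 to 0.281 for Qdpr, -0.094 to 0.317 for Slc6a3 and -0.058 to 0.137 for Maoa, with the lowest value of each without Dot1l(fl/fl) 1. It was -0.045 to 0.056 for Ddc and -0.018 to 0.155 for Pts in Dot1l(fl/+) against Dot1l(+/+), -0.231 to 0.065 for Gch1, -0.054 to 0.239 for Qdpr and -0.211 to 0.206 for Slc6a3 between Dot1l(fl/fl) and Dot1l(fl/+), and -0.013 to 0.090 for Gch1, -0.0031 to 0.147 for Slc6a3 and -0.015 to 0.093 for Maoa per allele. The cause of these changes was not tested.

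Litters were matched over the genotypes, by the study's methods, but whether the same replicate number marks the same litters is not given in the sources used here. The correlation of deviations from the genotype means was -0.031 to 0.045 for the same number and -0.051 to 0.045 for different numbers. These ranges overlap and do not settle it. The replicate block left the count of the 9 genes called at 0 in every comparison, with Th at -0.42 (edgeR adjusted p 0.139). In Dot1l(fl/fl) against Dot1l(+/+) it called 6 genes of all tested in place of 0. Genes at an unadjusted p under 0.05 in edgeR fell there from 1667 to 1383. These counts do not settle whether numbers mark litters either. With 2 libraries labelled Dot1l(fl/fl), which were also the shallowest, calls in this genotype rest on few samples, and a fit without one of them assumes that the other varies like the remaining groups.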
